A study of Mus musculus with 6 samples.

Results

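The SET complex is an assembly of nuclear and cytoplasmic proteins that contains the exonuclease Trex1, and the 5 genes described here encode its other named proteins: Set, Anp32a, Apex1, Hmgb2 and Nme1. The genes were chosen with earlier results of these data known, and their probe sets by symbol alone. Every probe set annotated to a member was taken, which gave 14 of 45037 that were not array controls. These were 3 each for Set, Anp32a, Apex1 and Hmgb2 and 2 for Nme1. Transcripts were measured on 1-colour arrays in heart ventricle tissue of 6 mice, 1 array per animal. The 3 littermate pairs, A to C, each held 1 Trex1 KO and 1 Trex1 WT animal. The 3 Trex1 KO mice lacked both Trex1 and Rag2. The 3 Trex1 WT mice carried wild-type Trex1 and also lacked Rag2, without which T and B lymphocytes do not mature. The sources used here give neither strain nor age. Log2 differences below are Trex1 KO minus Trex1 WT on the scale of log2(signal + 16).

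Set and Anp32a (also called pp32) are acidic proteins that bind histones and inhibit the protein phosphatase PP2A, and Set anchors the complex. Apex1 is the main endonuclease at abasic sites in base excision repair, and Hmgb2 bends DNA. Nme1 is a nucleoside diphosphate kinase. In killer cell attack, granzyme A cleaves Set, which releases Nme1 to nick DNA, and Trex1 then degrades DNA from the nicks. Trex1 outside this pathway removes DNA from the cytosol, and its loss is known for a cGAS and STING dependent interferon response in the heart.

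Promoter sequences are shown because interferon-induced transcripts rose in these hearts and the members can be read against one of them. RefSeq windows of 300 bases (250 before and 50 after an annotated start, build GRCm38.p6) were available for all 5 members, 7 windows in all, since Set and Nme1 have 2 annotated starts each. Both strands were searched for the interferon-stimulated response element (GAAANNGAAA), the E-box (CACGTG), the CCAAT box (CCAAT) and the GC box (GGGCGG). The 250 bases before the start are given for Apex1 at chr14:50924699-50924948 (+ strand), Nme1 at chr11:93968273-93968522 (- strand), Hmgb2 at chr8:57511593-57511842 (+ strand) and, for contrast, the antiviral gene Ifit1 at chr19:34640639-34640888 (+ strand). Capitals mark matches to the first 3 motifs on either strand.
Apex1: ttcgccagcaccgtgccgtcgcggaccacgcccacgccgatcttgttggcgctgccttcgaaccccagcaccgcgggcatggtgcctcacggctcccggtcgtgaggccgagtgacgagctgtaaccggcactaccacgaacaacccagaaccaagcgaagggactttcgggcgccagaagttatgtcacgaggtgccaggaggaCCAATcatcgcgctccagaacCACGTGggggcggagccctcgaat
Nme1: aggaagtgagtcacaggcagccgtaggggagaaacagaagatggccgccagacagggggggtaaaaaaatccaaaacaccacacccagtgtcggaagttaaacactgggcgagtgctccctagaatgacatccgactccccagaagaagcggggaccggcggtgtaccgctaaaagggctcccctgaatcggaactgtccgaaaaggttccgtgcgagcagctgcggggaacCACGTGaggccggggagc
Hmgb2: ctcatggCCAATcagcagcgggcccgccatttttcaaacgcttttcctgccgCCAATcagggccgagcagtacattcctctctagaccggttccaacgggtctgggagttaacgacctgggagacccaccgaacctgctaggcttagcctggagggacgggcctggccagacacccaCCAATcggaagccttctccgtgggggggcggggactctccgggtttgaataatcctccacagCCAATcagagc
Ifit1: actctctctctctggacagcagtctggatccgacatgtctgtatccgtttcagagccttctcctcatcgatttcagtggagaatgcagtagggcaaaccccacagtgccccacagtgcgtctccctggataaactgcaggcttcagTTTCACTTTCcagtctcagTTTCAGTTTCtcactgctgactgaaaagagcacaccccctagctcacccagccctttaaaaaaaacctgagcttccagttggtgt

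The interferon-stimulated response element had 0 matches in the 7 member windows and 2 in that of Ifit1. It occurred in 3.44% of 32851 windows and in 7 of the 15 genes of a list of interferon-stimulated genes that had a window. The E-box occurred in 4 of the 7 member windows, against 7.15% of all windows. Apex1 had 3 matches, 2 of them at or after its start, both windows of Nme1 had 1 and the upstream start of Set had 1. The CCAAT box occurred in 5 of 7 member windows, against 37.4% of all windows, with 4 matches in Hmgb2, 3 in Anp32a, 2 in Apex1 and 1 in each window of Set. The GC box occurred in 5 of 7 and in 35.7% of all windows. No match overlapped a match of another motif. A match is a description of the letters, and nothing follows from a missing one.

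**Figure D1:**
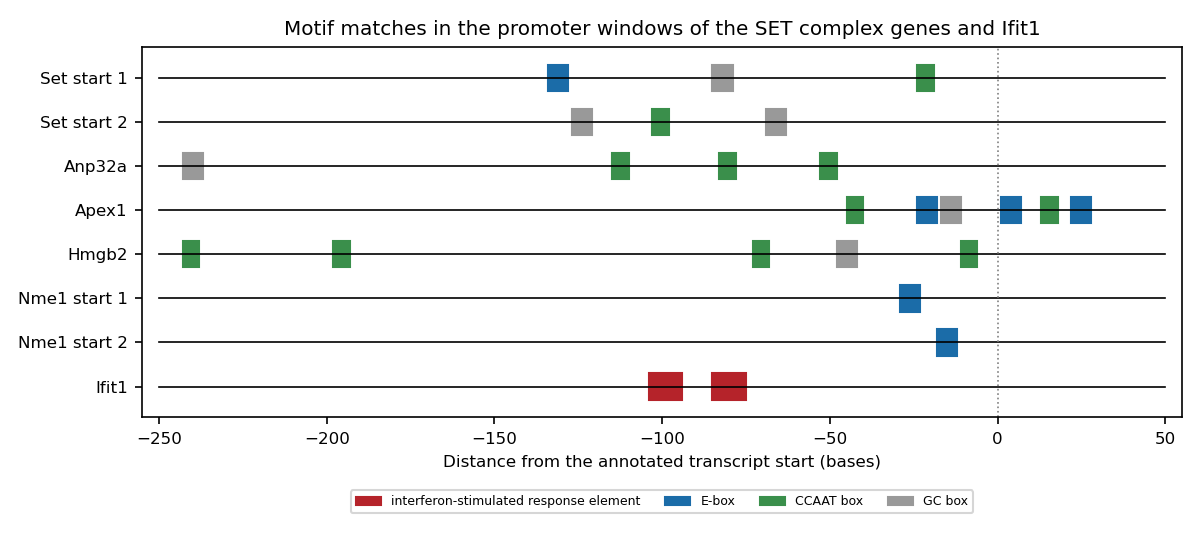
Motif matches in the RefSeq promoter windows of the SET complex genes and Ifit1, by distance from the annotated transcript start in bases (horizontal axis); each row is 1 window and each box 1 match on either strand. Response elements appear in the row of Ifit1 alone (2 matches), while Hmgb2 has 4 CCAAT boxes and Apex1 3 E-boxes.

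None of the SET complex transcripts changed by the test when Trex1 was missing. Of the 14 member probe sets, all 14 were bright enough to be tested, and 0 passed (limma over 27022 probe sets, Benjamini-Hochberg adjusted p from 0.890 to 0.9999). Across all tested probe sets 0.244% passed. In the fit with a littermate block, 0 of the 14 passed (limma adjusted p-values of 0.476 to 0.997), against 0.448% of all. At an unadjusted limma p under 0.05 stood 1 member probe set, of Set (5.44% of all), and 3 with the block (8.26% of all). The 3 were a probe set each of Set, Anp32a and Nme1. The Trex1 KO arrays lay all above the Trex1 WT arrays for 1 member probe set and all below for 1, so 2 of 14 did not overlap, where 10.6% of all did not. The sign was the same in all 3 pairs for 5 of 14 (2 higher and 3 lower), against 29.5% of all. Each of the 14 intervals at 95% lay within 1 log2 unit of 0, and 7 lay within 0.5. The median difference over the 14 was -0.06, and -0.01 over all tested probe sets. These p-values weigh a difference against the spread between 3 animals a group, which limma draws towards that of probe sets of similar level. With the block, differences between litters are taken out of that spread. A p that misses the threshold does not show equal levels.

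**Figure D2:**
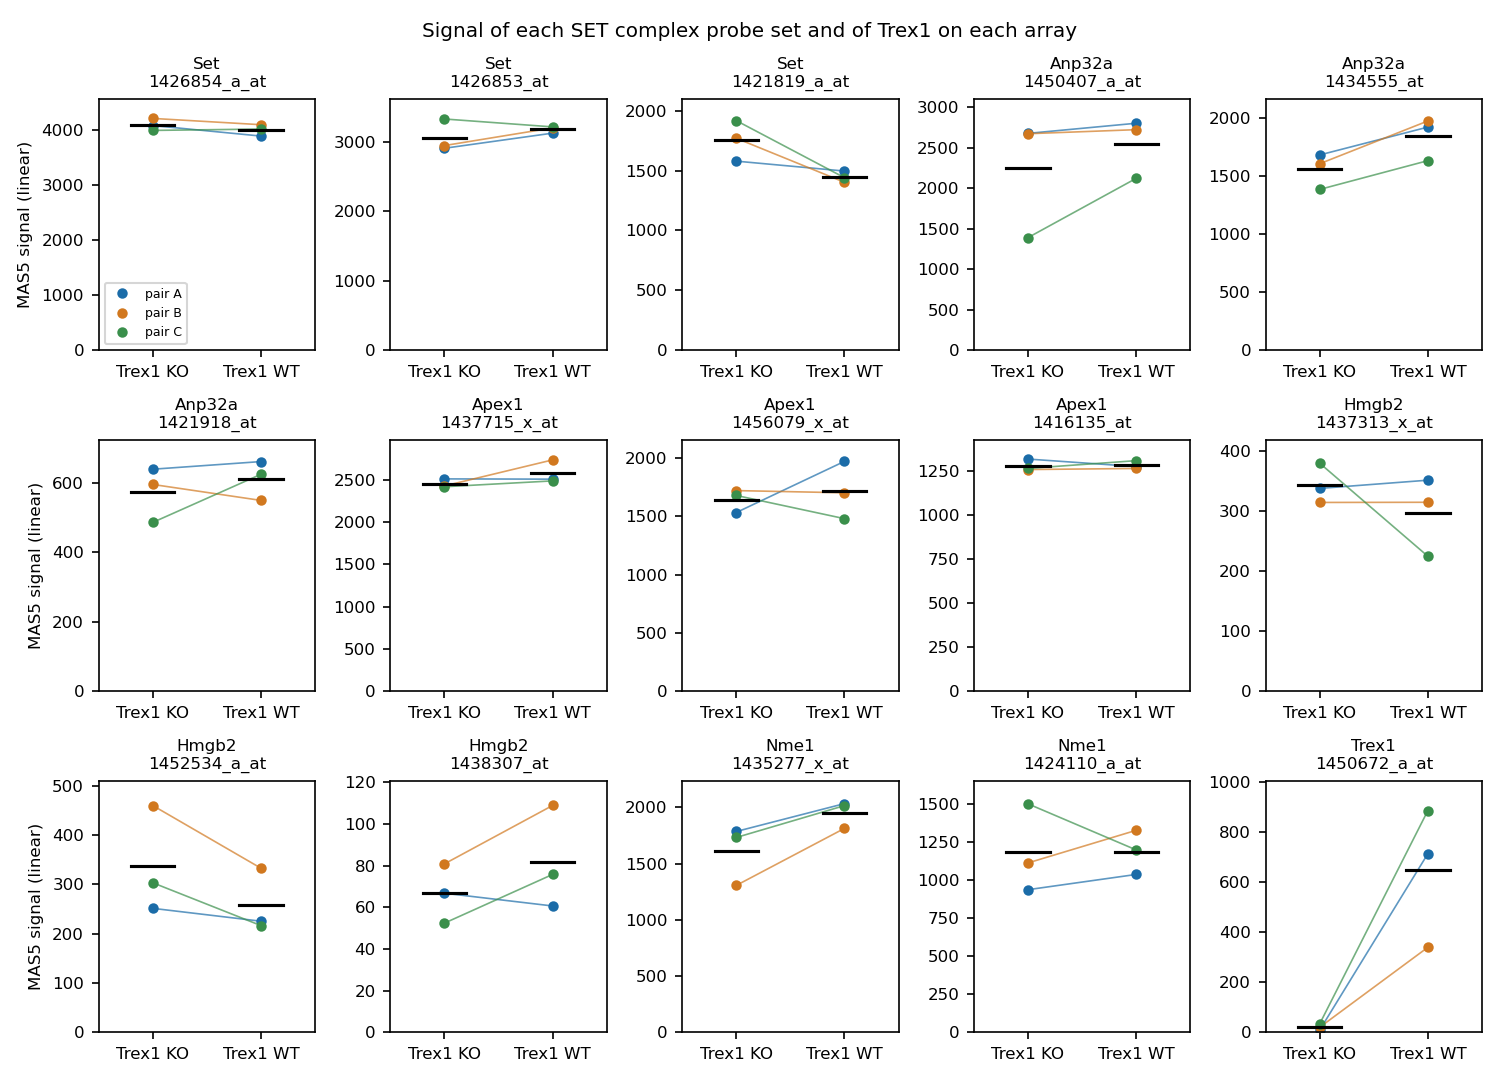
MAS5 signal (vertical axes, linear, starting at 0) of each of the 14 member probe sets and of Trex1 in Trex1 KO and Trex1 WT hearts; points are arrays, thin lines join littermates of pairs A, B and C, and black bars are group means (n = 3). The Trex1 points fall to near 0 in Trex1 KO, while the member signals overlap between groups in all panels except Set 1421819_a_at and Nme1 1435277_x_at.

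Trex1 itself checked the labels. Its probe set, annotated jointly to Atrip and Trex1, gave signals of 9.45, 20.6 and 34.2 in the Trex1 KO hearts of pairs A to C, against 714, 340 and 887 in their Trex1 WT littermates (log2 difference -4.10, SE 0.38, limma adjusted p = 0.00109). The Trex1 KO signals lay below the highest bacterial control, so the size of the difference depends on the pseudocount: it was -4.91 with a pseudocount of 1 and -2.98 with one of 64. Without both animals of pair A the adjusted p in limma was 0.0748 at a difference of -3.73. The Actb 3' to 5' ratio, a measure of RNA integrity, ran from 1.60 to 1.68 in Trex1 KO and from 1.80 to 2.29 in Trex1 WT. The same ratio for Gapdh overlapped, at 0.841 to 0.885 in Trex1 KO and 0.850 to 0.925 in Trex1 WT. The signal of 18S ribosomal RNA ran from 798 to 2834 in Trex1 KO and from 924 to 13708 in Trex1 WT. Of 9 cardiomyocyte markers all were tested and 0 passed (summed signal 358191 to 397986 in Trex1 KO, 325675 to 417570 in Trex1 WT). Of 8 lymphocyte markers on the array 7 lay below the filter. The highest of 27 bacterial controls, with no counterpart in mouse tissue, had a signal of 69.8.

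Set, the scaffold of the complex, differed little on its brightest probe set. Probe set 1426854_a_at had signals of 4078, 4207 and 3989 in the Trex1 KO hearts of pairs A to C, against 3887, 4093 and 4014 in their Trex1 WT littermates. The groups overlapped within a narrow band, and the log2 difference was 0.03 (interval -0.17 to 0.23, limma adjusted p = 0.984). The spread within groups was 0.04 on the log2 scale, smaller than or equal to all but the lowest 1.9% of 1340 tested probe sets within 0.5 log2 units of its level. Probe set 1426853_at had 2906, 2945 and 3327 in Trex1 KO and 3124, 3199 and 3213 in Trex1 WT, with a difference of -0.06 (interval -0.28 to 0.16, limma adjusted p = 0.974).

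The third Set probe set stood apart from these. Probe set 1421819_a_at had signals of 1578, 1769 and 1916 in the Trex1 KO hearts of pairs A to C, against 1496, 1402 and 1441 in their Trex1 WT littermates. All 3 Trex1 KO arrays lay above all 3 Trex1 WT arrays, and the differences in the 3 pairs were 0.08, 0.33 and 0.41. The log2 difference of 0.27 (SE 0.11, interval 0.02 to 0.52) had an unadjusted limma p of 0.0344 and an adjusted p of 0.890, so it did not pass. It lay between 0.20 and 0.37 under 17 alternatives, with limma adjusted p-values of 0.523 or more. The log2 ratio of 1421819_a_at to 1426853_at, the Set probe sets with the highest and lowest difference, was -0.87, -0.73 and -0.79 in Trex1 KO and -1.05, -1.18 and -1.15 in Trex1 WT. This pair was picked for its contrast, so the ratio is a description. The suffix a marks probes shared by several transcripts of a gene, and the sources used here do not give the Set transcripts behind each probe set.

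Anp32a, the PP2A inhibitor that binds Set, had lower means in Trex1 KO on all 3 probe sets without passing the test on any. Probe set 1450407_a_at had signals of 2678, 2674 and 1392 in the Trex1 KO hearts of pairs A to C, against 2804, 2724 and 2123 in their Trex1 WT littermates. Trex1 KO C was the low array, and Trex1 WT C was the lowest of its group. The difference was -0.23 (interval -0.75 to 0.29, limma adjusted p = 0.959), and 0.08 without Trex1 KO C. Its spread within groups of 0.41 was at or above that of 97.4% of 2052 tested probe sets of similar level. Probe set 1434555_at had 1680, 1604 and 1383 in Trex1 KO and 1919, 1972 and 1631 in Trex1 WT. Each Trex1 KO heart was below its littermate, by differences of -0.19, -0.29 and -0.23, while the groups overlapped (log2 difference -0.24, interval -0.51 to 0.03, limma adjusted p = 0.954 and 0.521 with the block). Adding the Actb ratio, which did not overlap between groups, to the fit left a difference of -0.03. Probe set 1421918_at had 639, 595 and 486 in Trex1 KO and 661, 549 and 624 in Trex1 WT, with mixed signs in the pairs and a difference of -0.10 (limma adjusted p = 0.972). With the Actb ratio in the fit the difference of 1421918_at was -0.25, further from 0, and that of 1450407_a_at was -0.02. Anp32a is the one member on the chromosome of Trex1, chromosome 9, with 279 tested genes between them in the RefSeq gene table of assembly GRCm38.p6.

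Apex1, the abasic site endonuclease, had differences within 0.07 of 0 on all 3 probe sets. Probe set 1437715_x_at had signals of 2510, 2428 and 2418 in the Trex1 KO hearts of pairs A to C, against 2507, 2735 and 2487 in their Trex1 WT littermates. The groups overlapped, with a difference of -0.07 (interval -0.28 to 0.14, limma adjusted p = 0.970). Probe set 1416135_at had 1317, 1258 and 1264 in Trex1 KO and 1275, 1264 and 1308 in Trex1 WT. Its difference was -0.0029 (interval -0.23 to 0.23, limma adjusted p = 0.9999). Its spread of 0.03 within groups was at or below that of all but 0.3% of 3101 tested probe sets of similar level. Probe set 1456079_x_at had 1532, 1721 and 1679 in Trex1 KO and 1971, 1702 and 1480 in Trex1 WT, with differences of -0.36, 0.02 and 0.18 in the 3 pairs and -0.05 between groups. The suffix x marks probes that can also match other transcripts, so the 2 brighter Apex1 probe sets could hold signal from elsewhere. The same holds for 1437313_x_at of Hmgb2 and 1435277_x_at of Nme1, the brightest probe sets of those genes.

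Hmgb2, the DNA-bending protein, had differences of either sign on its 3 probe sets and passed the test on none. Probe set 1437313_x_at had signals of 338, 315 and 380 in the Trex1 KO hearts of pairs A to C, against 352, 315 and 225 in their Trex1 WT littermates. Pairs A and B differed by less than 0.06 and pair C by 0.72, where Trex1 WT C was low. The log2 difference was 0.22 (interval -0.21 to 0.65, limma adjusted p = 0.956), and -0.03 without both animals of pair C. Probe set 1452534_a_at had 251, 460 and 303 in Trex1 KO and 225, 333 and 216 in Trex1 WT. Each Trex1 KO heart was above its littermate, by 0.15, 0.45 and 0.46, and the groups overlapped (log2 difference 0.35, interval -0.20 to 0.90, limma adjusted p = 0.955). Probe set 1438307_at, near the highest bacterial control with 66.7, 80.8 and 52.4 in Trex1 KO and 60.6, 109 and 75.8 in Trex1 WT, had a difference of -0.23 (limma adjusted p = 0.971). In the fit with the Actb ratio the differences of the 2 brighter probe sets were 0.66 and 0.69, and neither passed.

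Hmgb2 is abundant in dividing cells, so genes of DNA replication and mitosis were set beside it. Of 21 tested genes of that list 17 had a difference above 0 and 4 below. Their median was 0.19, against -0.02 over all tested genes. Past the threshold were 0 in either direction, where 0.312% of all tested genes were called higher. At an unadjusted limma p under 0.05 there were also 0, where 5.29% of all tested genes stood. Mki67, a proliferation marker, had signals of 324, 419 and 333 in Trex1 KO and 222, 367 and 208 in Trex1 WT, with each Trex1 KO heart above its littermate (log2 difference 0.45, limma adjusted p = 0.954). Aurka, a mitotic kinase, had 117, 113 and 119 in Trex1 KO and 44.7, 63.2 and 113 in Trex1 WT (difference 0.64, limma adjusted p = 0.952). Its signals in Trex1 WT A and B lay below the highest bacterial control. The summed signal of the 24 genes on the array was 5619 to 7006 in Trex1 KO and 5368 to 6440 in Trex1 WT. The part of dividing cells in the Hmgb2 values was not tested, and in whole tissue a change in the share of a cell type and a change in RNA per cell cannot be told apart.

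Nme1, the nucleoside diphosphate kinase that nicks DNA in the granzyme A pathway, was lower in all 3 pairs on its brighter probe set without passing the test. Probe set 1435277_x_at had signals of 1785, 1306 and 1732 in the Trex1 KO hearts of pairs A to C, against 2033, 1813 and 2015 in their Trex1 WT littermates. All Trex1 KO arrays lay below all Trex1 WT arrays, with differences of -0.19, -0.47 and -0.22 in the 3 pairs. The log2 difference of -0.29 (SE 0.14, interval -0.59 to 0.01) did not pass, with an unadjusted limma p of 0.0581 (0.0159 with the block) and an adjusted p of 0.927 (0.476 with the block). Without Trex1 KO B, the lowest array, it was -0.15. Probe set 1424110_a_at had 939, 1115 and 1504 in Trex1 KO and 1039, 1329 and 1201 in Trex1 WT. It was below the littermate in pairs A and B and above it in pair C, with a difference of -0.02 (interval -0.41 to 0.36, limma adjusted p = 0.996).

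The neighbour of Nme1 is its close relative Nme2, with 0 protein-coding genes between them in the RefSeq table, and probes of either could detect both. Nme2 had signals of 32550, 33198 and 35937 in Trex1 KO and 30276, 38856 and 37127 in Trex1 WT (log2 difference -0.06, limma adjusted p = 0.977). Of 5 tested relatives of Nme1, 0 passed and 1 had an unadjusted limma p under 0.05, against 5.29% of all tested genes. Nme6, another member of the family, had 404, 320 and 429 in the Trex1 KO hearts of pairs A to C, against 542, 510 and 624 in their Trex1 WT littermates. Its groups did not overlap, and the differences were -0.41, -0.65 and -0.53 in the pairs (log2 difference -0.53, SE 0.16, unadjusted p = 0.00837 and adjusted p = 0.652 in limma, 0.264 with the block). Nme6 lies on the chromosome of Trex1, with 7 tested genes between them. The other gene named by its p, Nme5, had a difference of -0.13 (limma adjusted p = 0.971).

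**Figure D3:**
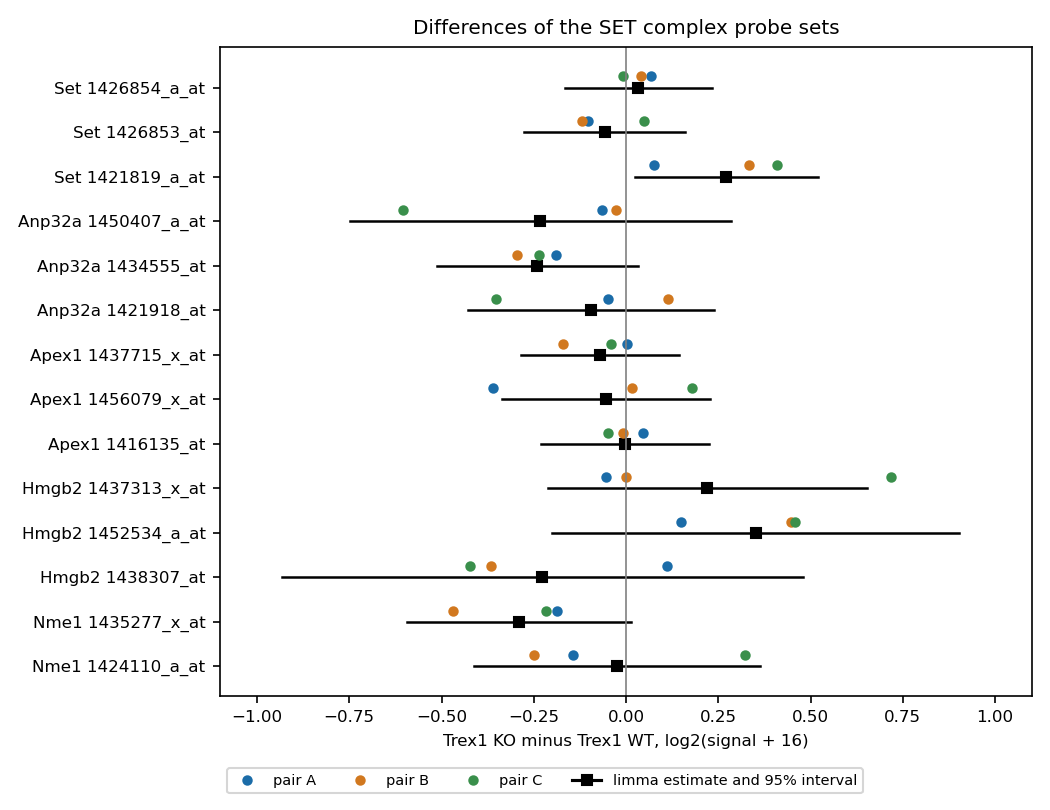
Log2 difference of Trex1 KO minus Trex1 WT, on log2(signal + 16), for each member probe set (horizontal axis); squares and bars are the limma estimate and its 95% interval (3 arrays a group), and coloured points are the differences within littermate pairs A, B and C. The intervals cross 0 for all probe sets except Set 1421819_a_at (0.02 to 0.52), and pair C stands away from pairs A and B in Anp32a 1450407_a_at and Hmgb2 1437313_x_at.

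No gene in the lists of relatives and shared pathways passed the test. Of all 12811 tested genes, 40 passed as higher and 5 as lower, and 5.29% had an unadjusted limma p under 0.05. Of 15 tested relatives of Set and Anp32a and other histone chaperones, 0 passed in either direction and 0 had an unadjusted limma p under 0.05, with a median of -0.01 and a range of -0.32 to 0.10. The smallest p there belonged to the nucleosome assembly proteins Nap1l4 (-0.10) and Nap1l5 (-0.32), with limma adjusted p-values of 0.959 and 0.967. Of 5 tested HMG family genes 0 passed and 0 had an unadjusted p under 0.05 in limma, with a median of -0.10. The smallest p belonged to Hmgn1 (-0.11) and Hmgb3 (0.08). Of 20 tested genes of base excision and single-strand break repair, the pathway of Apex1, 0 passed and 0 had an unadjusted p under 0.05 in limma (median -0.02, range -0.39 to 0.68). Ogg1, the glycosylase for oxidised guanine, had signals of 219, 157 and 185 in Trex1 KO and 154, 121 and 121 in Trex1 WT. All Trex1 KO arrays lay above all Trex1 WT arrays, and the difference of 0.45 did not pass (limma adjusted p = 0.943). Ung, which removes uracil from DNA, had a difference of -0.29 (limma adjusted p = 0.955).

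PP2A, the phosphatase that Set and Anp32a inhibit, had 21 tested subunits and regulators, of which 0 passed and 1 had an unadjusted limma p under 0.05, against 5.29% of all tested genes. The median was -0.02. Ppp2r3a, a regulatory B subunit, had signals of 15025, 14003 and 14544 in the Trex1 KO hearts of pairs A to C, against 10335, 9443 and 13419 in their Trex1 WT littermates. The groups did not overlap, and the log2 difference was 0.41 (interval 0.12 to 0.69, limma adjusted p = 0.687, and 0.280 with the block). Cip2a, an inhibitor of PP2A, had a difference of 0.71 at signals near the bacterial controls (70.8, 77.4 and 91.7 in Trex1 KO, 57.3, 40.4 and 32.8 in Trex1 WT, limma adjusted p = 0.927).

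Granzyme A is the protease that cleaves Set, and it was listed with other granzymes and genes that serve their delivery. Of 12 genes of granzyme delivery 7 were tested and 0 passed (0.312% of all tested genes were called higher), while 1 had an unadjusted limma p under 0.05 (5.29% of all), and the median was 0.35. Gzma, which encodes granzyme A, had signals of 381, 1582 and 649 in the Trex1 KO hearts of pairs A to C, against 329, 537 and 283 in their Trex1 WT littermates. Each Trex1 KO heart exceeded its littermate, by 0.20, 1.53 and 1.15, and the groups overlapped through Trex1 KO A and Trex1 WT B. The log2 difference of 0.96 (SE 0.43, unadjusted p = 0.0479) had a limma adjusted p of 0.917, and 0.219 with the block. Gzmb, granzyme B, had 130, 196 and 74.3 in Trex1 KO and 51.8, 101 and 49.7 in Trex1 WT (difference 0.81, limma adjusted p = 0.927). Natural killer cell markers, whose cells make granzymes, had 0 of 5 tested genes past the threshold and a median of 0.61. Their summed signal over 6 genes was 470, 942 and 400 in the Trex1 KO hearts of pairs A to C, against 355, 480 and 367 in their Trex1 WT littermates, so it was highest in the array with the highest Gzma. The median difference of the tested markers in pairs A to C was 0.05, 0.74 and -0.145. In pair C this median was below 0, while Gzma and the summed signal were higher in Trex1 KO. The markers were mixed in that pair: Eomes (0.85) and Nkg7 (0.21) were above 0, and Ncr1 (-0.34), Klrd1 (-0.145) and Klrk1 (-0.17) below. Between groups, 4 of the 5 tested markers had a difference above 0 and 1 below. The latter was Ncr1 (-0.08), with means of 61.6 in Trex1 KO and 65.3 in Trex1 WT, near the bacterial controls. Klrk1, Nkg7 and Eomes, with differences above 0, also had Trex1 WT means below the highest bacterial control (69.8). The Trex1 WT mean of Klrd1 lay above it. The part of natural killer cells in the Gzma values was not tested. Of the 4 other granzyme A substrates listed 0 passed and 0 had an unadjusted p under 0.05 in limma, with Lmnb1 at 0.22 and Lmna at 0.12, both lamins of the nuclear envelope.

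Interferon-stimulated genes, by contrast, moved in the same arrays. Of 18 tested genes of that list 14 were higher and 0 lower in Trex1 KO by the adjusted limma p, where 0.312% of all tested genes were higher. The median difference was 1.97, and the list was chosen with earlier results of these data known. Usp18, the protease that removes ISG15, had signals of 5940, 7253 and 6786 in the Trex1 KO hearts of pairs A to C, against 519, 772 and 660 in their Trex1 WT littermates (log2 difference 3.34, SE 0.15, limma adjusted p = 6.54e-06). Ifit1, whose promoter is printed above, had 4112, 5676 and 4536 in Trex1 KO and 595, 1044 and 625 in Trex1 WT (2.67, limma adjusted p = 0.000354). Oas3, Ifit3, Irf7 and Oasl1 had differences of 2.78, 2.60, 2.57 and 2.27, all with limma adjusted p-values of 0.00524 or less. The Trex1 WT signals of Oas3 (29.6, 27.6 and 24.4) lay below the highest bacterial control, so the size of its difference depends on the pseudocount. The same groups of arrays thus gave intervals of 3.01 to 3.67 for Usp18 and of -0.17 to 0.23 for the brightest probe set of Set. For Set 1421819_a_at the interval was 0.02 to 0.52.

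**Figure D4:**
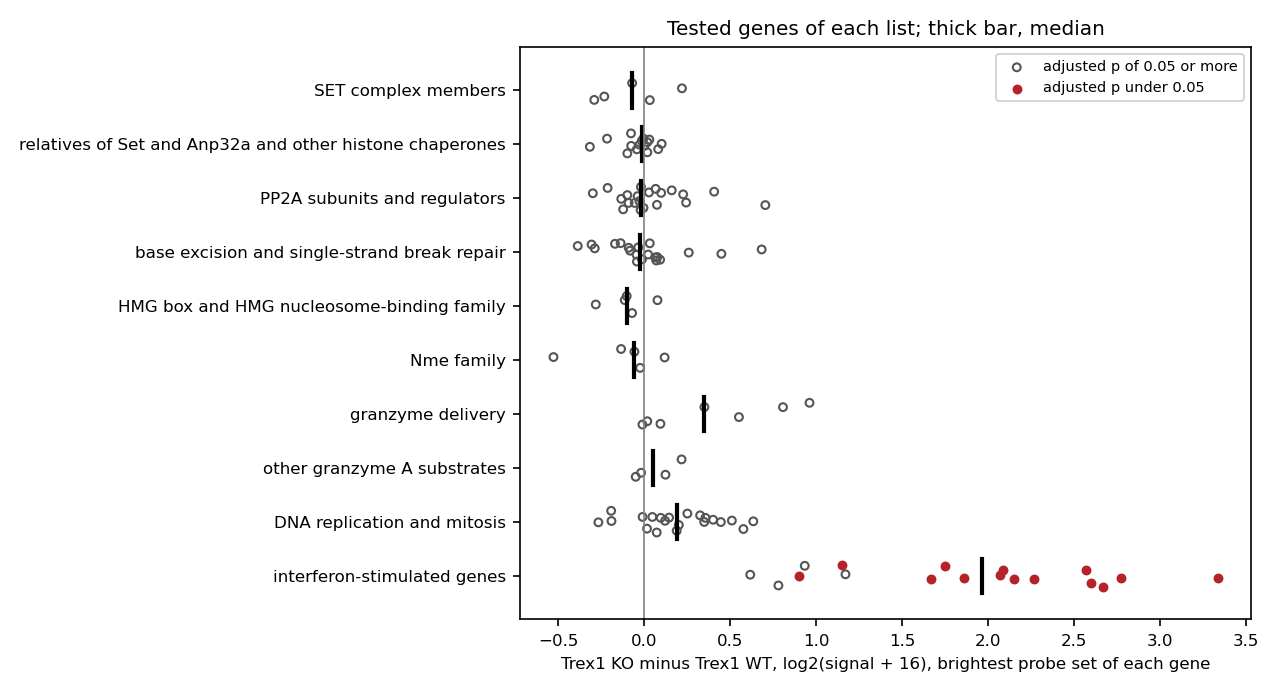
Log2 difference of Trex1 KO minus Trex1 WT for the brightest probe set of each tested gene (horizontal axis, log2(signal + 16)), by gene list; filled red points passed the test, open points did not, thick bars are medians, and points are spread vertically for legibility. The SET complex genes lie between -0.29 and 0.22, while interferon-stimulated genes have a median of 1.97.

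The genes with the most similar profile to each member over the 6 arrays were ranked by Pearson r of log2 values on brightest probe sets. Set was most like Klrk1, Agap1 and H2aw (r of 0.992, 0.982 and 0.981). Klrk1, a natural killer receptor, had mean signals of 107 in Trex1 KO and 61.5 in Trex1 WT, near the bacterial controls, and Set varied little, so this likeness rests on small differences. Anp32a was most like Tmem87a, Prpf39 and Faf2 (0.991, 0.989 and 0.988). Apex1 was most like Dtx4, Cyp2d22 and Rab33b (0.995, 0.985 and 0.984). Hmgb2 was most like Gm19277, Nfu1 and Emc8 (0.987, 0.983 and 0.980), and Nme1 was most like Pigb, Wsb2 and Dock5 (0.994, 0.990 and 0.988). These are the 3 highest of the 12811 tested genes, leaving out the members, Y-linked genes and Xist. They rest on 6 arrays that share litters, so they describe these arrays only. Of the 15 genes 0 passed the test between groups.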

How the data were processed

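Biotin-labelled total RNA from heart ventricle of 6 mice was hybridised to 1-colour arrays. The deposited intensity per probe set is linear and was computed by the authors with MAS5, as the submitters' processing notes state. The sources used here give no version, settings or genome build. Each array had a mean of 500.0 after trimming 2% at each end, so no further scaling was applied. Groups came from the titles and pairs from the series' design text. Across probe sets, littermates deviated together from their group means (r of 0.151, 0.192 and 0.147, against 0.0101 or less for other animals). Deviations from a group mean cancel out within the group, so a positive r for littermates forces a lower r for other animals on average. The latter is thus no independent comparison. From the deposited intensity, log2(signal + 16) was computed, and the 27022 probe sets with a mean at or above the 40th percentile (signal 53.8) entered limma 3.58.1 under R 4.3.3 (lmFit, eBayes with trend), two-sided, with Benjamini-Hochberg adjustment at 0.05. The fit was tested on simulated data. The pair as a block, pseudocounts, filters, quantile normalization, no trend, an RNA quality covariate and omitted arrays or pairs were alternatives. The platform annotation gave symbols; the brightest probe set with 1 symbol stood for a gene. Named from related lists were genes past the threshold (6 at most) or the 2 with the smallest p. Members and lists were chosen with earlier results of these data known. The number of arrays limits the precision.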

Additional observations from a re-analysis of the deposited data

How the results depend on the processing

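On the brightest probe set of each of the 5 members (or the gene mean, 1 of the 18 alternatives) there were 0 calls, with limma adjusted p-values of 0.476 or more, and 87 of 90 values kept their sign. The exceptions were Anp32a at 0.080 without Trex1 KO C (range without single arrays -0.39 to 0.080), Apex1 at 0.036 with the Actb ratio as a covariate and Hmgb2 at -0.028 without both animals of pair C; the cause was not tested. The other probe sets also had 0 calls, and 5 of them changed sign under some alternatives: Nme1 1424110_a_at under 6 of 17 alternatives, Apex1 1416135_at under 4 and 1456079_x_at under 3, Anp32a 1421918_at under 2 and Hmgb2 1438307_at under 1 of 16. Trex1 had a difference of -3.73 without both animals of pair A and no longer passed. Over all probe sets, 59 higher and 7 lower became 105 and 16 with littermate pairs as a replicate block, 24 and 4 without a trend, 18 and 1 with the Actb ratio, 23 and 0 without pair A and 34 and 4 without pair C, and 12 were lower without pair B. Without single arrays the counts ran from 33 to 85 higher and from 3 to 9 lower. The replicate block changed no call of a member, Trex1 or a related list, apart from 15 in place of 14 interferon-stimulated genes, and among cell type markers it called 1 atrial gene, Nppa, in place of 0. The number of arrays, 3 a group, limits the precision, and 1 probe set of Hmgb2 lay near the bacterial controls.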
